A study of Mus musculus with 6 samples.

Results

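DNA damage checkpoint and recombination repair genes were examined in MPC5 cells, a mouse podocyte line, with and without overexpression of lncRNA Dlx6-os1. The group was given as a list of 49 gene symbols, and a gene belonged to it when its symbol had a row in the deposited transcript table. Of the 49 symbols, 48 were found, out of 11308 genes in the whole table. The symbol without a row was Claspn. The usual mouse symbol of claspin, the adaptor through which ATR activates CHK1, is Clspn, which was looked up afterwards and is kept out of every count.

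A cell that finds damaged DNA or a stalled replication fork stops its cycle and repairs the break. The kinases ATM and ATR sense breaks and single-stranded DNA, and pass the signal to the checkpoint kinases CHK2 and CHK1, which hold back entry into mitosis. Breaks in replicated DNA are repaired by homologous recombination, in which the ends are trimmed, BRCA1 and BRCA2 act with their partners and a set of mediators, and the intact sister chromatid serves as the template. The Fanconi anaemia proteins act on crosslinks between DNA strands, and end joining seals breaks without a template. Many genes of homologous recombination and of the S phase checkpoint are transcribed mainly in dividing cells, and podocytes of the kidney filter rarely divide, while conditionally immortalized podocyte lines are grown by letting them divide in culture. The paper describes its glucose groups as differentiated mature podocytes and its overexpression groups only as cultured normal podocytes. Whether the sequenced cells had been differentiated is not stated.

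The comparison was of 2 groups of 3 samples in normal glucose, one of cells with forced expression of lncRNA Dlx6-os1 and the other of controls, all labelled as C57BL/6 strain. The methods name an adenovirus and normal controls, whereas the protocols in the labels name a lentivirus with an empty vector for the controls and the titles call the controls WT, so whether the controls received a vector is not settled by these sources. Control replicate 3 carries no genotype label and was placed by its title. MPC5 is a single line, and nothing in the labels says that the samples came from separate cultures, so the p-values measure only the spread between these samples, which may be technical. Dlx6-os1 itself was not analysed here, and the labels were therefore not checked against the overexpressed RNA.

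RNA was measured as FPKM, which scales fragments by transcript length and by the mapped total of each sample, and the transcripts of a gene were added up. The table holds 21849 protein-coding transcripts, its summed FPKM ranged from 329402 to 371806 per sample, and the depth in reads is unknown. Each sample listed 626 to 908 transcripts at 0, and such a 0 can be a failed estimate. Of 10 podocyte markers, 6 were measured and none was called in either direction, and the others were not analysed here. In bulk samples such as these, fewer cells that express a gene and less RNA per cell cannot be told apart.

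Changes are given as log2 differences of FPKM + 1, overexpression against control, from limma. The added 1 shrinks the differences of weakly expressed genes. The study called a gene at a fold above 1.5 together with a p under 0.05, and does not say whether that p was adjusted. These thresholds were applied here as 0.585 on the log2 scale of FPKM + 1 with an unadjusted p. For weakly expressed genes this fold is stricter than one without the added 1. An adjusted p under 0.05 (Benjamini-Hochberg over all genes) was read separately. At the thresholds of the study, 1 of 48 members, Chek2, was called higher (2.08%), against 2.49% of all genes. None was called lower, against 2.23% of all genes. Over the whole table this was 282 genes higher and 252 lower, or 228 and 314 when each sample was centred on its median. By limma 0 members passed the adjusted threshold, at which 0.0354% of all genes were called, and the lowest adjusted p of a member was 0.481. At an unadjusted p under 0.05 alone, 4 members were higher (8.33%, against 5.29% of all genes), Chek2, Bard1, Fancd2 and Rad54b, and 0 were lower, against 3.87% of all genes. In 7 members (14.6%) the 3 overexpression samples all lay above the 3 controls, against 10.1% of all genes, and in 1 member, Atrip, they all lay below, against 6.24%.

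Most members had a small positive difference. The log2 change was above 0 in 35 of 48 members (72.9%), against 54.2% of all genes, and its median was 0.18, against 0.03. The members ranged from −0.53 for Rad52 to 0.63 for Chek2, with a median SE of 0.20, so that the typical difference was smaller than its own error. By role, the medians were 0.29 for the BRCA proteins, 0.27 for the break-end enzymes and helicases, 0.25 for the Fanconi anaemia genes, 0.24 for the recombination mediators and 0.21 for the checkpoint kinases. They were 0.17 for the activators of ATR, 0.05 for break signalling on chromatin and 0.02 for end joining.

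**Figure D1:**
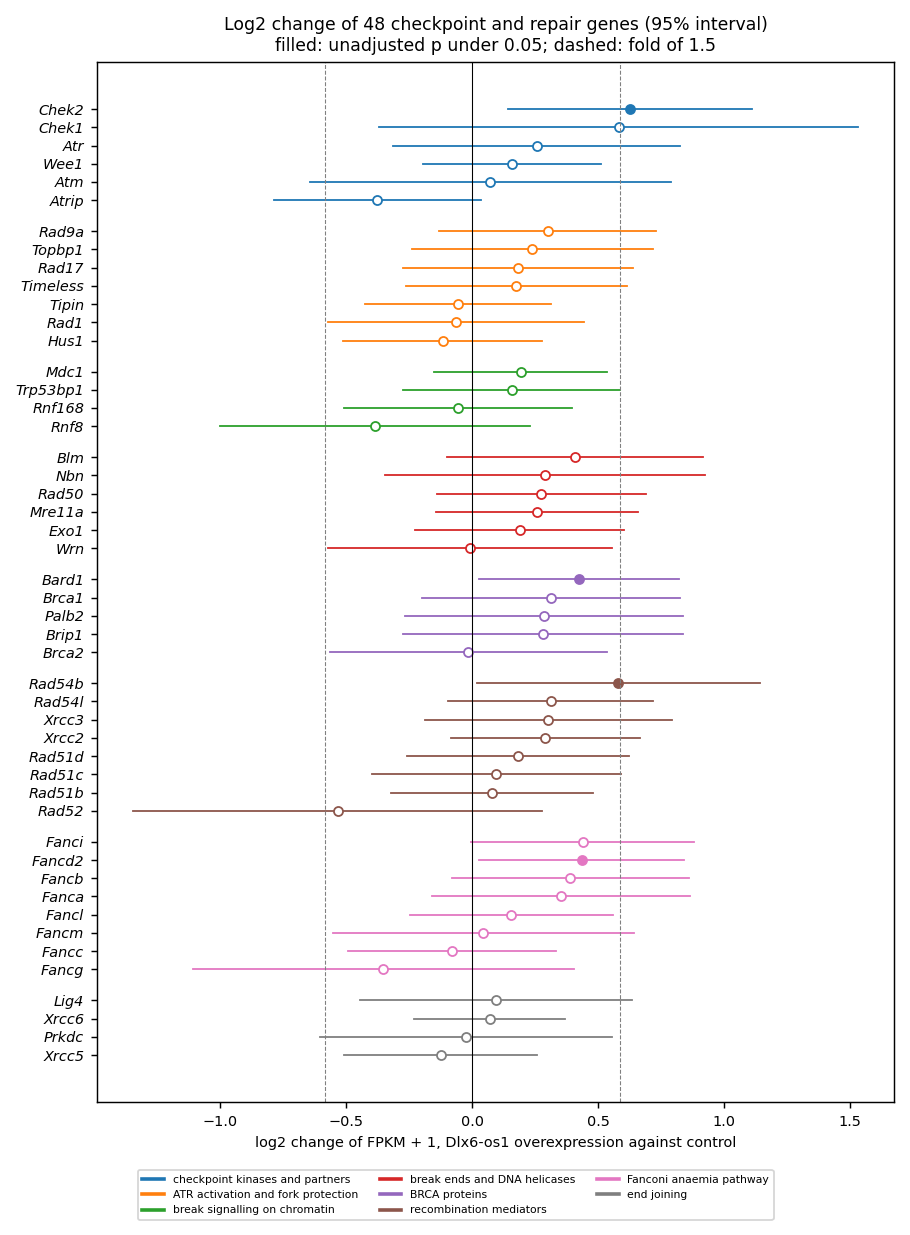
Log2 change of FPKM + 1 (horizontal axis) of the 48 members, grouped by role on the vertical axis, with the 95% interval of the limma fit. Filled points are the 4 members at an unadjusted p under 0.05, and Chek2 at 0.63 is the filled point beyond the dashed line of a fold of 1.5.

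Among the checkpoint kinases and their partners, Chek2, which encodes the effector kinase of ATM, was the member called higher. It lies on the plus strand of chromosome 5 from 110839979 to 110874145 (mm10). Its FPKM was 15.6, 12.2 and 10.9 in controls 1 to 3 and 16.8, 18.7 and 26.5 in the overexpression samples. The groups did not overlap, but overexpression replicate 1 exceeded control replicate 1 by little, and overexpression replicate 3 was the highest. The log2 change was 0.63 (SE 0.21, 95% interval 0.14 to 1.11, n = 3 per group), past the unadjusted threshold but with an adjusted p of 0.481 by limma. This call was lost without control replicate 2 (log2 change 0.60), control replicate 3 (0.52) or overexpression replicate 3 (0.44), and also after quantile normalization (0.57) or without variance moderation. Leaving out any other sample kept it, at 0.68 to 0.76. The adjusted p in the fits with a sample left out ranged from 0.228 to 0.862 (limma).

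Chek1, which encodes the effector kinase of ATR, had the largest SE of the 48 members. Its FPKM was 6.09, 2.11 and 0.989 in the controls and 5.01, 4.66 and 3.31 in the overexpression samples. Control replicate 1 was the highest of the 6 samples and control replicate 3 the lowest, so the overexpression samples lay inside the range of the controls. The log2 change of 0.58 had an SE of 0.42 (adjusted p = 0.702, limma). Without control replicate 1 it was 1.09 (adjusted p = 0.223, limma), and without control replicate 3 it was 0.17.

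Atr, the kinase that responds to single-stranded DNA, had the same order of controls, with 3.95, 2.01 and 1.65 FPKM against 3.24, 2.90 and 3.06. Its log2 change was 0.26 (SE 0.25), and the groups overlapped. Atrip, which encodes the partner that brings ATR to single-stranded DNA, was the member whose overexpression samples all lay lower. Its FPKM was 1.70, 1.41 and 1.12 in the controls and 0.981, 0.893 and 0.684 in the overexpression samples. The log2 change was −0.38 (SE 0.18, adjusted p = 0.578, limma), which missed the unadjusted threshold too, at levels among the lowest of the group.

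Atm, the kinase that responds to breaks, measured 8.50, 3.87 and 3.51 FPKM in the controls and 6.41, 5.86 and 3.76 with overexpression, a log2 change of 0.07 (SE 0.31). Wee1, which encodes the kinase that restrains CDK1, measured 11.0, 10.6 and 11.1 FPKM against 11.2, 13.9 and 12.0. The Wee1 samples did not overlap, yet the log2 change of 0.16 (SE 0.15, adjusted p = 0.80, limma) was about as large as its error.

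**Figure D2:**
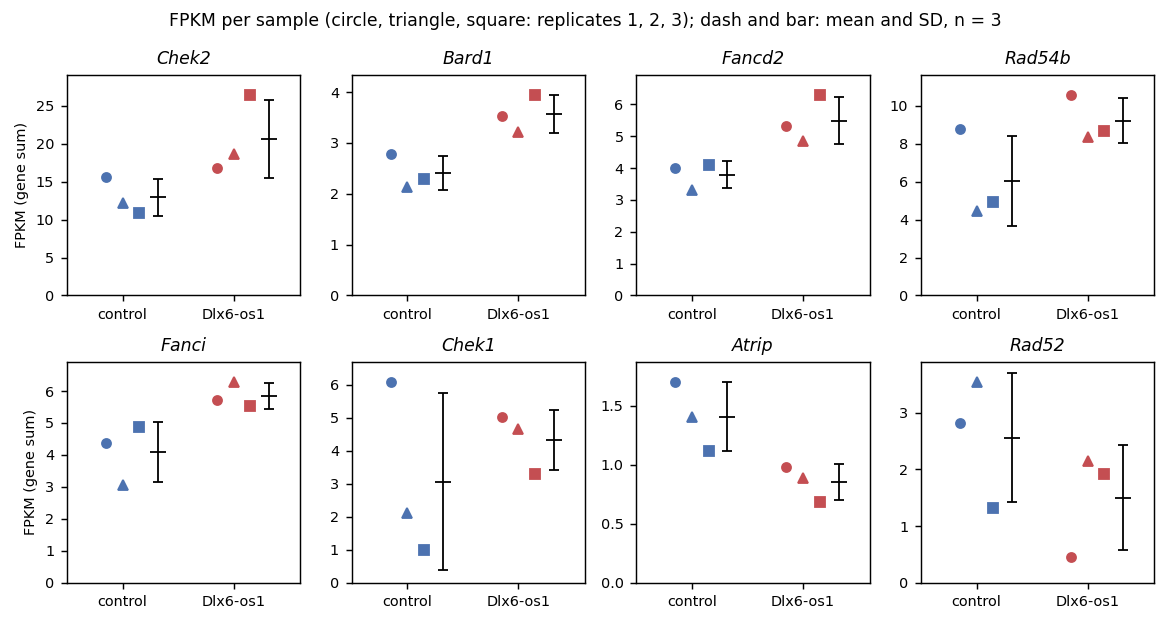
FPKM (vertical axis, from 0) of 8 members in each of the 3 control samples and 3 samples overexpressing Dlx6-os1, with replicates 1, 2 and 3 as circle, triangle and square and the mean and SD beside them. Chek2, Bard1, Fancd2 and Fanci show overexpression samples above all controls and Atrip shows them below, whereas in Chek1 control replicate 1 at 6.09 is the highest sample.

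The genes that activate ATR and protect the fork included the most abundant members. Tipin, which encodes a fork protection protein bound to TIMELESS, had the highest level, 89.4, 69.3 and 64.6 FPKM in the controls and 74.5, 71.2 and 67.0 with overexpression (log2 change −0.06, SE 0.16). Topbp1, which encodes the activator of ATR, measured 43.6, 28.5 and 25.0 FPKM against 38.3, 39.3 and 34.6 (log2 change 0.24, SE 0.21). In both genes control replicate 1 was the highest sample and control replicate 3 the lowest. Rad9a, Rad1 and Hus1 encode the clamp that is placed at damaged DNA, and Rad17 belongs to its loader. Rad9a had a log2 change of 0.30 (SE 0.19) and its highest value, 45.2 FPKM, in overexpression replicate 3. Rad17 had 0.18, Rad1 −0.06 and Hus1 −0.12 on the log2 scale. Timeless had 0.17, and all of these groups overlapped. Clspn, outside the counts, measured 22.0, 12.8 and 13.8 FPKM in the controls and 22.9, 20.7 and 19.9 with overexpression, a log2 change of 0.40 (SE 0.21, adjusted p = 0.61, limma) with overlapping groups.

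Break signalling on chromatin starts with MDC1, which reads the marked histone and recruits the ubiquitin ligases RNF8 and RNF168, after which 53BP1 binds. Mdc1 (log2 change 0.19, SE 0.15) and Trp53bp1 (0.16, SE 0.19) had small positive differences, and Rnf168 had −0.06. Rnf8 measured 4.79, 5.32 and 4.37 FPKM in the controls and 3.48, 2.06 and 5.43 with overexpression. Its overexpression samples spread from the lowest to the highest of the 6, and the log2 change of −0.39 had an SE of 0.27. Without overexpression replicate 3 the Rnf8 change was −0.65 (adjusted p = 0.844, limma), past the thresholds of the study.

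The enzymes that trim and unwind break ends had positive differences, apart from Wrn. Blm, which encodes a RecQ helicase, measured 6.07, 3.32 and 3.80 FPKM in the controls and 6.74, 5.97 and 5.35 with overexpression. The overexpression samples lay above control replicates 2 and 3, with control replicate 1 among them, and the log2 change was 0.41 (SE 0.22, adjusted p = 0.623, limma). Without control replicate 1 it was 0.62 (adjusted p = 0.227, limma). The 3 genes of the MRE11 complex, which holds and trims the ends, had log2 changes close to each other as sums, 0.29 for Nbn (SE 0.28), 0.27 for Rad50 (SE 0.18) and 0.26 for Mre11a (SE 0.17). Their single transcripts were less alike. Rad50-001 had 0.04, and Rad50-005 was listed at 5.17 FPKM in overexpression replicate 3 and at 0 in the other 5 samples. Mre11a-001 had −0.01, Mre11a-002 0.13 and Mre11a-003 0.67, and the transcripts of Nbn are given below. Exo1, the nuclease for long-range trimming, had 0.19, and Wrn, another RecQ helicase, had −0.01 (SE 0.25).

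Among the BRCA proteins, Bard1, which encodes the obligate partner of BRCA1, had an unadjusted p under 0.05. Its FPKM was 2.79, 2.14 and 2.29 in the controls and 3.53, 3.21 and 3.95 in the overexpression samples. The groups did not overlap, and the log2 change was 0.42 (SE 0.17, 95% interval 0.03 to 0.82, adjusted p = 0.527, limma), below a fold of 1.5. Its gene spans 71027498 to 71103146 of chromosome 1 on the minus strand, and a single transcript was listed. With 1 sample left out its log2 change ranged from 0.36 to 0.50, and the unadjusted p stayed under 0.05 only without control replicate 1.

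Brca1 itself measured 7.99, 4.44 and 4.95 FPKM in the controls and 8.17, 6.61 and 6.97 with overexpression. Control replicate 1 again lay with the overexpression samples, and the log2 change was 0.31 (SE 0.22, adjusted p = 0.704, limma). Palb2, which links BRCA1 to BRCA2, had 0.29 and Brip1, a helicase bound by BRCA1, had 0.28, both with overlapping groups. Brca2, which acts downstream of BRCA1 in recombination, had a log2 change of −0.02 (SE 0.24), with 5.32 FPKM in control replicate 1 and between 2.53 and 3.95 in the other samples.

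The recombination mediators ranged more widely than any other role. Rad54b, which encodes a DNA translocase of homologous recombination, measured 8.76, 4.43 and 4.93 FPKM in the controls and 10.6, 8.38 and 8.68 in the overexpression samples. Control replicate 1 exceeded 2 of the overexpression samples, so the groups overlapped. The log2 change was 0.58 (SE 0.24, adjusted p = 0.533, limma), past the unadjusted p threshold and just under the fold of 1.5. It was past that fold with a pseudocount of 0.1 or 0.5 (0.66 and 0.62), as a ratio of group means (0.61) and without control replicate 1 (0.84, adjusted p = 0.22, limma). Leaving out any other sample took its unadjusted p above 0.05. Rad54l, a related translocase gene, had 0.31 (SE 0.18).

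Xrcc2 measured 6.51, 7.11 and 7.35 FPKM in the controls and 9.51, 9.21 and 7.67 with overexpression. Its groups did not overlap, and the log2 change of 0.29 (SE 0.16) had an adjusted p of 0.633 by limma. The related mediator genes had 0.30 (Xrcc3), 0.18 (Rad51d), 0.10 (Rad51c) and 0.08 (Rad51b), and Rad51b had the lowest mean level of the 48 members, 0.929 FPKM over the 6 samples. Rad52, which encodes a strand-annealing protein, had the most negative difference. Its FPKM was 2.82, 3.54 and 1.32 in the controls and 0.448, 2.14 and 1.92 with overexpression. The groups overlapped, and the log2 change was −0.53 (SE 0.35, adjusted p = 0.681, limma), between −0.18 without overexpression replicate 1 and −0.81 without control replicate 3, where it was past the thresholds of the study (adjusted p = 0.567, limma).

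In the Fanconi anaemia pathway, the genes of the pair of proteins that is ubiquitinated at crosslinks had similar differences. Fancd2 measured 4.00, 3.30 and 4.08 FPKM in the controls and 5.31, 4.85 and 6.30 in the overexpression samples. Fanci measured 4.38, 3.06 and 4.86 FPKM against 5.71, 6.29 and 5.53. In both genes all overexpression samples lay above all controls, including control replicate 1. The log2 change was 0.43 for Fancd2 (SE 0.18, adjusted p = 0.526, limma) and 0.44 for Fanci (SE 0.19, adjusted p = 0.548, limma), each below a fold of 1.5. For Fancd2 the unadjusted p stayed under 0.05 only without control replicate 1 when samples were left out in turn.

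The genes of the core complex, which attaches ubiquitin to that pair, were mixed. Fancb (log2 change 0.39, SE 0.21) and Fanca (0.35, SE 0.22) had positive differences with overlapping groups, and Fancl, the ubiquitin ligase, had 0.16. Its main transcript, Fancl-001, had −0.29. Fancl-003 was listed at 2.86 and 1.63 FPKM in overexpression replicates 2 and 3 and at 0 in the other samples. Fancm, a translocase, had 0.04 and Fancc −0.08. Fancg had −0.35 (SE 0.33), with 1.85 FPKM in overexpression replicate 1 and between 4.62 and 6.34 in the other 5 samples.

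The end joining genes had the smallest median difference of the 8 roles. Xrcc6, which encodes KU70, measured 20.4, 20.8 and 20.4 FPKM in the controls and 21.3, 21.8 and 21.8 with overexpression. The samples did not overlap, but the log2 change was 0.07 (95% interval −0.23 to 0.37). Xrcc5, which encodes its partner KU80, had −0.12, Prkdc, the kinase bound to KU, had −0.02, and Lig4, the ligase, had 0.09. None of the 4 was called.

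E2F factors switch on S phase genes, and their binding motif was searched in the promoters of the members, from 250 bases before to 50 bases after the RefSeq start (GRCm38.p6). A promoter was found for 35 of the 48 members, and not for Rad54b, Fancd2, Rad9a, Xrcc2, Nbn, Rad50, Mre11a, Exo1, Rad51d, Wee1, Wrn, Prkdc and Tipin. The letters searched on both strands were TTTCCCGC, TTTCGCGC, TTTGCCGC and TTTGGCGC. They were present in 8 members (22.9%), against 4.95% of 8647 genes with FPKM values and 2.6% of 27025 genes of the promoter table. The windows of Chek2 and Bard1, the members with a p under 0.05 that had a promoter, are shown with those of Xrcc6 and Fancg, whose changes were near 0 and negative. Capitals mark the motif, each sequence reads 5′ to 3′ on the strand of the gene, and TTTCCCGC on the opposite strand reads GCGGGAAA.
Chek2: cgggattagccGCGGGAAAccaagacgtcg
Bard1: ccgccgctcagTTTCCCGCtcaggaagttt
Xrcc6: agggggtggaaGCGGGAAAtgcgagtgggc
Fancg: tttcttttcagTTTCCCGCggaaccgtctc
These windows lie at chr5:110839820-110839849 on the plus strand, chr1:71103163-71103192 on the minus strand, chr15:82016312-82016341 on the plus strand and chr4:43010335-43010364 on the minus strand. The members with the motif had log2 changes of 0.63 (Chek2), 0.42 (Bard1), 0.24 (Topbp1), 0.19 (Mdc1), 0.10 (Rad51c), 0.07 (Xrcc6), −0.02 (Brca2) and −0.35 (Fancg), so a match went with differences on either side of 0. The shorter CHR motif TTTGAA, known from genes of late cell cycle, was present in Bard1, Rad51b, Hus1 and Rnf8, which is 11.4% of the 35, against 13.5% of the genes with FPKM values and 20.2% of the promoter table. No E2F match overlapped a CHR match. A match is a description of these letters, not of a bound site.

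Control replicate 1 differed from the other controls in many members. Relative to the mean of the 6 samples of each gene, the median of the members was 0.13, −0.20 and −0.22 on the log2 scale in controls 1 to 3 and 0.14, 0.08 and 0.05 in the overexpression samples. Thus control replicate 1 lay among the overexpression samples, and the other controls lay below all of them. It was the highest control in 31 of 48 members, against 4388 of 11308 genes, and the highest of all 6 samples in 17 members, among them Chek1, Atm, Atr, Brca2, Topbp1 and Tipin. The summed FPKM of the members was 509, 422 and 410 in the controls and 492, 505 and 502 in the overexpression samples.

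Transcript length moved with this pattern. Genes were put in 3 classes of nearly equal number by the length of their transcripts, and 24 of the 48 members fell in the class of 3663 bases and more. Control replicate 1 exceeded the mean of the other controls by a median log2 difference of 0.28 in the long genes of the whole table and of 0.42 in the 24 members of that class. The same difference was 0.28 over all 48 members and −0.29 in the short genes of the table. With the trend with length removed from each sample, an alternative added after the data had been seen, the median log2 change of the members was 0.16 (0.01 for all genes). Then 2 members were higher at an unadjusted p under 0.05 (4.17%, against 5.33% of all genes), Chek2 (0.60) and Bard1 (0.41), and 1 was lower, Atrip (−0.41). Fancd2 (0.41, from 0.43) and Rad54b (0.55, from 0.58) kept nearly the same log2 change, but their unadjusted p was then just above 0.05.

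**Figure D3:**
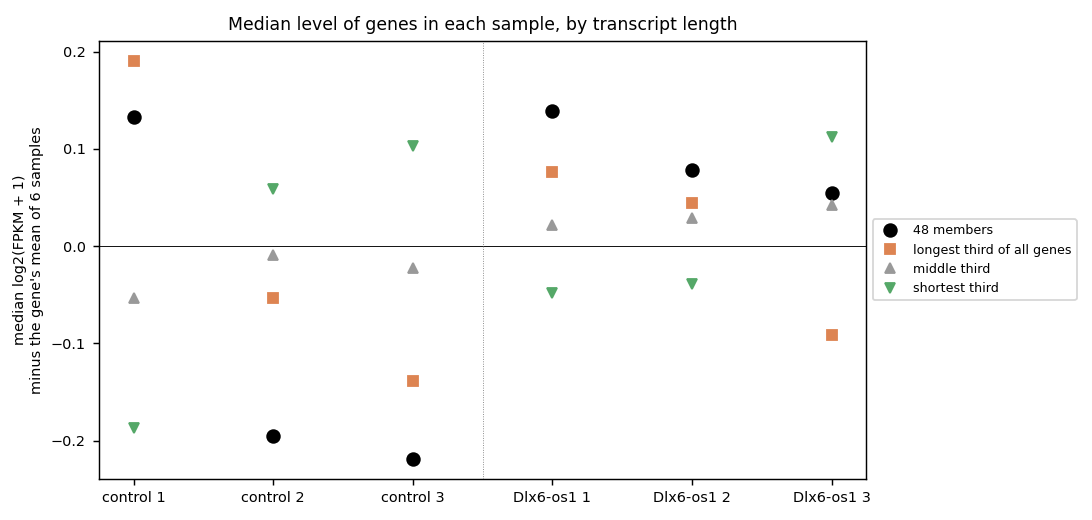
Median over genes of log2(FPKM + 1) minus the mean of the 6 samples of the gene (vertical axis) in each sample, for the 48 members and for 3 length classes of the whole table. The members stand at 0.13 in control replicate 1, like the long genes at 0.19, and at −0.20 and −0.22 in the other controls, below the overexpression samples at 0.05 to 0.14.

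The number of members called depended on which samples were used, with the largest shift without control replicate 1. Without it, 4 members were called higher (8.33%, against 3.03% of all genes), Chek1, Rad54b, Blm and Chek2. At an unadjusted p under 0.05 alone there were then 14 members higher (29.2%, against 9.49% of all genes) and 0 lower, against 6.34%. These 14 were Rad54b, Chek1, Blm, Topbp1, Chek2, Brip1, Brca1, Atr, Bard1, Rad50, Fancb, Rad17, Fancd2 and Fanci. By limma 0 of the 48 passed the adjusted threshold in that fit either, where the lowest adjusted p was 0.22. Leaving out control replicate 2, control replicate 3 or overexpression replicate 3 left 0 members called higher. At an unadjusted p under 0.05 alone, 0 to 3 members were higher with any other single sample left out, against 4 with all samples. The lone call and the larger set without control replicate 1 therefore each rest on which samples are used. The length trend was removed only in a fit of all samples, so the part of transcript length in this dependence was not tested.

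**Figure D4:**
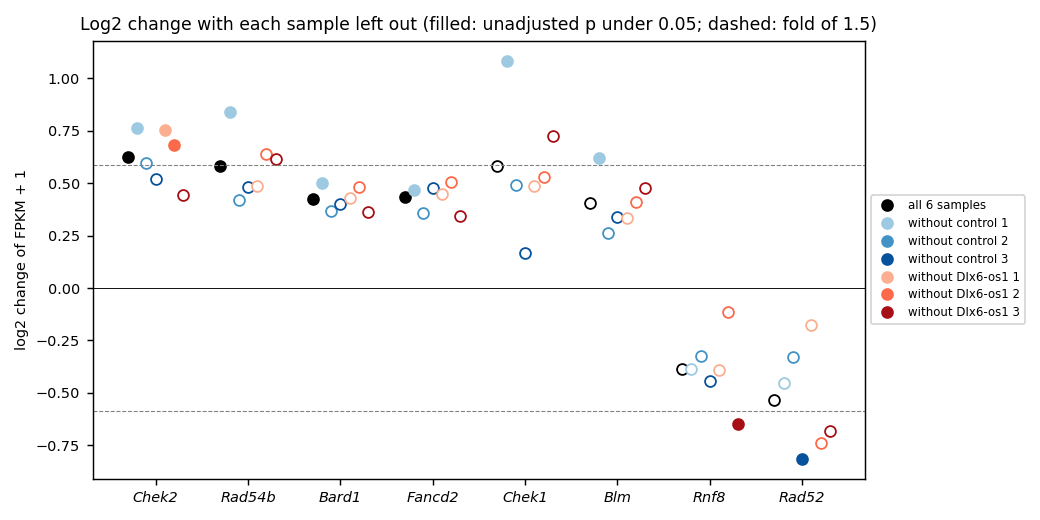
Log2 change of FPKM + 1 (vertical axis) of 8 members with all 6 samples (black) and with each sample left out in turn, filled where the unadjusted p was under 0.05, with dashed lines at a fold of 1.5. Chek1 goes from 0.58 to 1.09 without control replicate 1 and to 0.17 without control replicate 3, while Bard1 stays between 0.36 and 0.50.

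The 48 members had 81 transcripts in the table, and 23 members had 1 each. Fitted by themselves, 5 transcripts were called higher, against 3.07% of all transcripts, and 1 was lower, against 2.51%, and 0 passed the adjusted threshold (limma). The transcripts called higher were Blm-001, Chek2-002, Fancd2-001, Nbn-002 and Wrn-001, and the one called lower was Fancc-002. No transcript was listed with both group means below 0.5001 FPKM. Nbn-002 (control mean 0.304) was thus listed only through its overexpression mean, and Fancc-002 (overexpression mean 0) only through its control mean. That filter favoured the direction of both calls. Chek2-002, which held 79.5% of the FPKM of Chek2 in the controls and 85.0% with overexpression, had a log2 change of 0.70 (adjusted p = 0.649, limma), so the difference of the gene lay in its main transcript. Fancd2-001 had 1.66, 0.961 and 1.07 FPKM in the controls and 2.24, 2.50 and 2.35 with overexpression, while Fancd2-008, the more abundant one, had a log2 change of 0.20.

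In Nbn and Wrn the transcripts differed more than the sum of the gene. Nbn-002 measured 0.277, 0.460 and 0.174 FPKM in the controls and 11.1, 11.3 and 0.360 with overexpression, so that replicates 1 and 2 of the overexpression group were high and replicate 3 lay with the controls. Nbn-001 measured 15.3, 9.38 and 7.32 FPKM against 4.09, 3.88 and 9.28, and was lowest in the 2 samples in which Nbn-002 was high. The share of Nbn-002 in the gene was 2.77% in the controls and 56.9% with overexpression on the group means. Wrn-001 measured 0.686, 0.763 and 0.541 FPKM in the controls and 1.84, 1.75 and 1.47 with overexpression (log2 change 0.69, SE 0.19, adjusted p = 0.609, limma). All 3 overexpression samples of Wrn-001 lay above all controls, and its share of Wrn was 14.8% against 39.1%.

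Blm-002 was listed at 2.21 and 2.05 FPKM in control replicates 1 and 2 and at 0 in the other 4 samples, and Fancc-002 was listed at 0 in all 3 overexpression samples. Rad52-013 held 81.4% of the FPKM of Rad52 in the controls and 36.2% with overexpression, and was listed at 0 in overexpression replicates 1 and 2. Of the 81 transcripts, 10 were listed at 0 in at least 1 sample. How reads shared by the transcripts of a gene were divided was not tested.

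**Figure D5:**
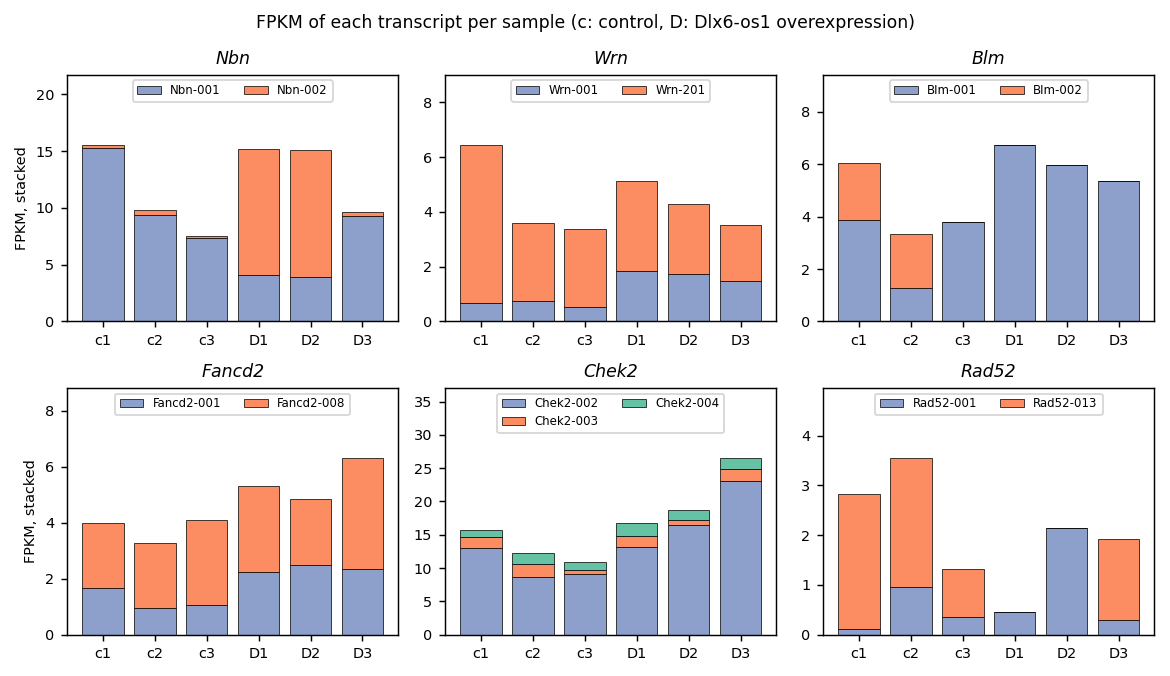
FPKM (vertical axis, stacked from 0) of each transcript of 6 members in controls 1 to 3 and overexpression samples 1 to 3. Nbn-002 reaches 11.1 and 11.3 in the first 2 overexpression samples and 0.360 in the third, and Wrn-001 is higher in all 3 overexpression samples, at 1.47 to 1.84.

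Further genes of checkpoint signalling and break repair, 66 chosen by role, were set beside the members, and 65 were measured. Paxx was taken as the gene listed as 1110059E24Rik by symbol alone, a match that may be wrong, and this gene was not called. Of the 65 genes, 6 were called higher (9.23%, against 2.49% of all genes) and 1 lower (1.54%, against 2.23%). Their median log2 change was 0.10, against 0.03 for all genes, and 46 of them (70.8%) were above 0, against 54.2%. Gen1, which encodes a nuclease that cuts recombination junctions, measured 4.20, 3.08 and 3.85 FPKM in the controls and 6.89, 5.90 and 8.22 with overexpression. Its log2 change was 0.76 (SE 0.19, adjusted p = 0.421, limma), and the groups did not overlap. Also higher were Hrob, listed as BC030867 (0.75), which recruits the MCM8 and MCM9 helicase, the RecQ helicase gene Recql4 (0.67), Eme1 (0.66), a subunit of the nuclease with MUS81, Fancf (0.69) and Rad51ap1 (0.66), which acts in homologous recombination. All overexpression samples lay above all controls in 12 of the 65 genes (18.5%, against 10.1% of all genes), and these 6 were among them. They all lay below in 5 of the 65, against 6.24% of all genes.

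Polq, which encodes the polymerase of an alternative end joining route, was the gene called lower. It measured 1.68, 1.25 and 0.616 FPKM in the controls and 0.390, 0.405 and 0.342 with overexpression (log2 change −0.63, SE 0.22, adjusted p = 0.481, limma). Its single transcript was listed only through the control mean of 1.18, since transcripts with both group means below 0.5001 FPKM were absent. That filter favoured a lower call. Its call was lost without control replicate 1 (log2 change −0.47) or control replicate 2 (−0.60). Mus81, the partner of Eme1, had −0.97 (SE 0.46, adjusted p = 0.573, limma), with 5.52 FPKM in overexpression replicate 3 and 1.18 and 1.12 in the other two. Without overexpression replicate 3 it was −1.50 (adjusted p = 0.468, limma) and past the thresholds of the study, as it was with −1.28 without control replicate 1.

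Most markers of dividing cells were higher with overexpression. Of 16 such genes, 8 were called higher (50%, against 2.49% of all genes) and 0 lower, against 2.23%, and their median log2 change was 0.60, against 0.03 for all genes and 0.18 for the members. Their summed FPKM was 956, 1004 and 1157 in the controls and 1269, 1236 and 1455 with overexpression, without overlap. Among the controls the order of these sums was opposite to that of the members, since control replicate 1 had the lowest sum of these markers and the highest summed FPKM of the members. Single markers went both ways. Control replicate 1 was the highest control in Mki67 (44.1, 20.0 and 19.5 FPKM in controls 1 to 3), Top2a, Bub1 and Kif11. It was the lowest control in others, such as Plk1, Cdc20 and Pcna. The mitotic genes Ccnb1 (log2 change 0.86) and Plk1 (0.82) were among the 8 called. The log2 change was above 0 in 14 of the 16, and 0 passed the adjusted threshold (lowest adjusted p 0.421, limma). Mcm5 (0.16), Tyms (0.12), Mcm2 (−0.15) and Pcna (−0.15) were among the 8 not called. In Pcna all overexpression samples lay below all controls. Of 7 tubule markers 2 were measured, Lrp2 and Cdh16, and both were called lower, with summed FPKM of 245 to 367 in the controls and 84.6 to 195 with overexpression. Cdh16 made up most of the sum, with a control mean of 252 FPKM against 50.4 for Lrp2. The log2 change was −1.14 for Cdh16 (adjusted p = 0.455, limma) and −0.74 for Lrp2 (adjusted p = 0.496, limma). Of the other marker lists, 2 of 7 immune cell genes and 3 of 5 mesangial and fibroblast genes were measured and none was called, and 0 of 5 endothelial genes was measured. The part of cell division or of other cells in the differences of the repair genes was not tested.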

How the data were processed

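The authors deposited FPKM of protein-coding transcripts in 6 samples. The submitters' processing notes name FastQC, HISAT2, StringTie and mm10, without versions, and do not say whether quantification used strand. No transcript had both group means below 0.5001, so low transcripts had been removed before deposit. Groups came from the labels. FPKM were summed per gene symbol and compared on the log2 scale after adding 1, using limma 3.58.1 under R 4.3.3 (eBayes with trend, two-sided, all 6 samples, no covariate), with Benjamini-Hochberg adjustment over all genes. The fit was tested on simulated data with independent normal noise of the fitted variances. Those data held no length trend and no deviating replicate, so the test does not bear on these features. Exact permutation of 3 against 3 samples cannot go below 0.1, so no exact p is given. A filter at a mean of 0.5 removed no gene. Lengths came from GENCODE M21. Alternatives were other pseudocounts, filters, scalings, variance models, folds and transcripts, a replicate block and leaving out each sample. Depth is unknown, and precision rests on the spread between samples. The members and lists were chosen with earlier results of these data known. Every member was named, and of the other pathway genes up to 4 called genes with the smallest p. Markers of dividing cells were also named outside that rule, some of them not called. Fancf, Rad51ap1, Polq and Mus81 were named after their values were seen.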

Additional observations from a re-analysis of the deposited data

How the results depend on the processing

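The median log2 change of the 48 members stayed above 0 in every alternative run, from 0.10 without control replicate 3 to 0.24 without control replicate 1. At the thresholds of the study, members called higher numbered 2 with a pseudocount of 0.1 or 0.5, with folds of group means and with the transcript of the highest mean in place of the sum, and 0 with quantile normalization and without moderation, and ranged from 0 to 4 with 1 sample left out. Members called lower numbered 1 with the transcript of the highest mean and 0 to 1 with 1 sample left out. At an unadjusted p under 0.05, 2 members were higher after rescaling to TPM, 1 after median-centring, 2 with the length trend removed (added after the data had been seen) and 0 to 14 with 1 sample left out. Those lower numbered 1 with median-centring, without moderation, with the transcript of the highest mean and with the length trend removed, and 0 to 2 with 1 sample left out. Among the other pathway genes, those higher numbered 3 to 7 with 1 sample left out, and those lower 2 with the replicate block, 2 with the transcript of the highest mean and 0 to 2 with 1 sample left out. The cause was not tested. Over all genes, calls higher and lower numbered 145 and 103 without moderation, against 282 and 252, and 407 and 382 without overexpression replicate 1.

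Samples with the same replicate number had correlations of their deviations from the group means of 0.287, 0.0238 and 0.295, against −0.311 to 0.106 for unlike numbers. Numbers 1 and 3 thus matched best with themselves, but control replicate 2 was closest to overexpression replicate 3 (0.0886). The numbers were not taken as pairs in the main fit, and an effect shared by samples of 1 number is not excluded. With the number as a block, 1 member was called higher, 0 lower and 5 were higher at an unadjusted p under 0.05, and over all genes 349 were higher and 294 lower. Among values of single members over all alternatives, 5 lost the call, 10 gained it and 0 called values reversed. The log2 change could shift widely without a change of call, as for Chek1, which had 0.58 with all samples and 0.17 without control replicate 3. Depth is unknown, so no limit from read counts can be given, and members near 1 FPKM, such as Atrip and Rad51b, rest on the lowest levels.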
